A study of Homo sapiens with 27 samples.

Results

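The 34 genes described here encode the enzymes and transporters of glycolysis, the pathway that splits glucose to pyruvate and lactate, together with a pair of hypoxia-inducible factors and a set of genes known to respond to low oxygen. They were listed by name and not by a rule on their values, but with earlier results of these data known. All 34 were found in the deposited table of 36536 genes (rows sharing a symbol summed), and all 34 were among the 15575 genes with enough counts to be tested. CA9 had almost no counts in the control libraries and reached that minimum only through other groups.

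The study measured RNA by sequencing in MCF10A, a human breast epithelial line that grows indefinitely but does not form tumours. The growth medium held epidermal growth factor (EGF, 20 ng/ml), 10 µg/ml insulin, 5% horse serum, hydrocortisone and cholera toxin, and cells were moved for 18 h to a medium free of growth factors, whose composition the labels do not give. They then received EGF, oncostatin M (OSM, a cytokine related to interleukin-6) or transforming growth factor beta (TGFB), at 10 ng/ml each, alone, in each of the 3 pairs or all together, and RNA was taken after 24 h. Phosphate-buffered saline (PBS) for 24 h was the control, and the group T0 was taken at 0 h. The 9 groups of 3 libraries make 27. The labels name no genotype and no oxygen condition. They do not say whether the 3 libraries of a group came from separate cultures, so the p-values measure only the spread between these samples, which may be technical.

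Glucose enters cells through transporters, is phosphorylated by hexokinase, split, and oxidised to pyruvate with a small yield of ATP. Pyruvate either enters mitochondria or is reduced to lactate by lactate dehydrogenase and exported. When oxygen is scarce, the prolyl hydroxylases that normally mark the alpha subunits of the hypoxia-inducible factors for destruction slow down. The factors then accumulate as protein and raise transcription of most glycolytic genes, so their own RNA is not a measure of their activity.

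The libraries held 30.1 to 52.9 M counts each (M, mega; median 39.5 M). A level is the count scaled to a library of 1 M counts (CPM), with TMM factors applied to library sizes. They are not divided by transcript length, so levels are compared between groups for 1 gene and never between genes. GAPDH, ENO1, PGK1, LDHA, PGAM1, TPI1 and ALDOA have processed copies elsewhere in the genome, and SLC2A3 has a near-identical neighbour in SLC2A14, so reads of these genes may be shared with copies and their levels are uncertain to that extent. All 11 markers of mammary epithelium (keratins, E-cadherin and others) exceeded 1 CPM in every group, with a summed level of 15400 to 44300 CPM. Of markers of other cells, the 6 for fibroblasts summed to 13 to 214 CPM, carried by COL1A1 and DCN, the 6 for immune cells to 20.3 to 50.5 CPM, carried by CD68, and the 5 for endothelium to 1.27 to 35.3 CPM, carried by KDR. These sums also moved between groups. The epithelial sum was 15400 to 17600 CPM in PBS, 30400 to 30900 with OSM and 41500 to 44300 with OSM and TGFB, and the immune sum 27.4 to 29.8, 39.8 to 43.2 and 45.3 to 50.5. The fibroblast sum was lowest with EGF and OSM and highest with TGFB, and the endothelial sum was highest in PBS. CD3E, COL3A1, CDH5 and LYZ stayed at or under 0.0679 CPM in every group mean. Mitochondrial transcripts took a mean of 2.98% of counts in PBS and 1.30% with all 3 ligands. The part of these shifts in the results below was not tested. In RNA from whole cultures, fewer cells of a kind and less RNA per cell cannot be told apart.

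Of the 34 genes, 29 rose and 5 fell with OSM, so that every one differed from PBS. These numbers rest on edgeR's quasi-likelihood test, with a gene called at a Benjamini-Hochberg adjusted p under 0.05 over all 15575 genes. OSM changed much of the transcriptome: 33.5% of all genes tested were called higher and 29.8% lower. With EGF, 23 of the 34 rose and 9 fell, against 34.9% and 38.6% of all genes. With TGFB, 8 rose and 13 fell, against 19.9% and 15.8% of all genes. The median log2 fold change of the 34 was 1.13 with OSM, 0.40 with EGF and -0.05 with TGFB, where the medians of all genes were 0.00, -0.07 and -0.01. A change of at least 2-fold was reached upward by 18 of the 34 with OSM, 7 with EGF and 3 with TGFB, against 10.1%, 11.7% and 4.08% of all genes. Downward it was reached by 0, 3 and 1, against 10.0%, 15.9% and 1.72%. Counts over all genes therefore belong beside every count below, because a large share of genes moved with each ligand.

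Combinations that held OSM kept most of the set above PBS. EGF with OSM raised 28 and lowered 5 (all genes, 37.6% and 39.6%). OSM with TGFB raised 28 and lowered 4 (34.2% and 31.8%), and all 3 ligands together raised 28 and lowered 4 (37.7% and 36.7%). EGF with TGFB, the pair without OSM, raised 21 and lowered 12 (36.2% and 37.5%). Median log2 fold changes were 1.14, 1.21, 1.46 and 0.38 in that order. Rises of at least 2-fold numbered 20, 23, 24 and 7 (15%, 12.7%, 14.7% and 13.6% of all genes), and falls of that size 1, 2, 2 and 3 (19.7%, 11.5%, 16.7% and 16.5%). The 34 genes took a mean of 1.40% of all counts in PBS, 1.26% with TGFB, 1.91% with EGF, 2.56% with OSM and 2.81% with all 3 ligands. LDHA enters these shares from 2 rows that are equal in all 27 libraries. The shares, and their rise with OSM, may therefore be too high.

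**Figure D1:**
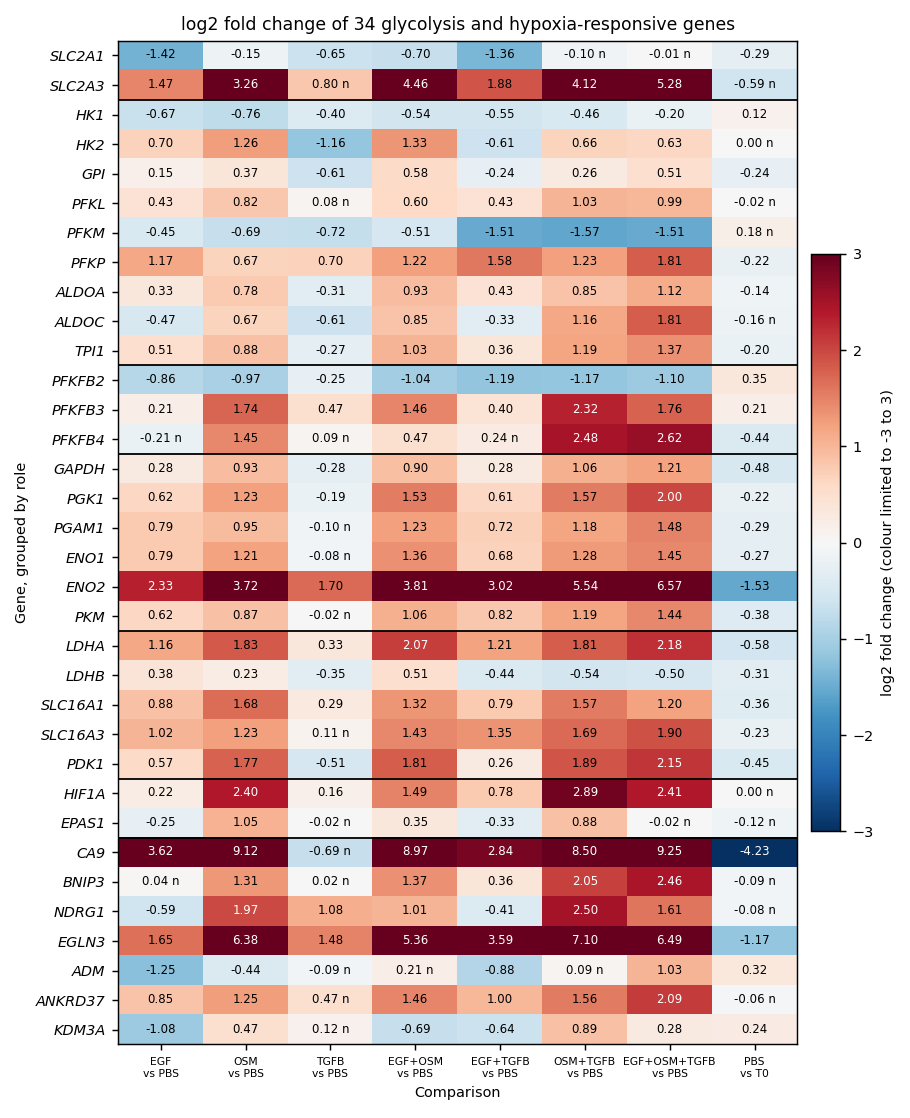
Log2 fold changes of the 34 genes (rows, grouped by role) in 8 comparisons (columns), from a fit of 27 libraries; each cell prints the value, n marks a value that was not called at an adjusted p under 0.05, and colour is limited to -3 to 3. The OSM columns are mostly red with 29 of 34 genes called higher for OSM alone, while TGFB alone has 13 genes called lower; the values of CA9 rest on 2 counts in PBS.

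For 18 genes, all 12 libraries that received OSM, alone or combined, lay above all 15 other libraries, which held for 1.46% of all genes tested. They were SLC2A3, ALDOA, ALDOC, TPI1, PFKFB3, GAPDH, PGK1, PGAM1, ENO1, ENO2, LDHA, SLC16A1, PDK1, HIF1A, CA9, BNIP3, EGLN3 and ANKRD37, which take in parts of every role group. None of the 34 had all OSM libraries below all others (0.905% of all genes). The highest group mean was with all 3 ligands for 19 of the 34 genes and with OSM and TGFB for 6. The lowest was with TGFB alone for 12 and with PBS for 11. Highest and lowest groups were not counted over all genes, so these numbers have no background. Set directly against EGF, OSM left 28 genes higher and 2 lower (28.0% and 28.8% of all genes), of which 14 and 0 reached 2-fold (8.35% and 4.78%).

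HIF1A encodes the alpha subunit of hypoxia-inducible factor 1. It lies at chr14:61695513-61748259 on the plus strand (GENCODE v44, GRCh38, whole gene). HIF1A read 197, 205 and 201 CPM in PBS and 197, 201 and 206 at T0. It read 1030, 1110 and 1030 CPM with OSM and 1480, 1520 and 1470 with OSM and TGFB. Every library with OSM was above every other, and the OSM libraries did not overlap those of any group without it. The log2 fold change with OSM was 2.40 (SE 0.05, adjusted p = 1.24e-22). With EGF the libraries held 221, 238 and 245 CPM and with TGFB 210, 231 and 234, both slightly above PBS. The log2 fold change with EGF was 0.22 (SE 0.05, adjusted p = 0.000183). With TGFB it was 0.16 (SE 0.05, adjusted p = 0.00958), a call that ended without TGFB replicate 2 (adjusted p = 0.051) or replicate 3 (adjusted p = 0.058). EGF with TGFB gave 356, 341 and 341 CPM, above either alone. Adding EGF to OSM brought the level down to 539, 585 and 574 CPM, and with all 3 ligands it was 1070, 1050 and 1090.

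EPAS1 encodes the alpha subunit of hypoxia-inducible factor 2. It read 374, 384 and 367 CPM in PBS, 779, 821 and 735 with OSM and 295, 331 and 321 with EGF. OSM raised the level and EGF lowered it, with no overlap between the groups. Log2 fold changes were 1.05 (SE 0.06, adjusted p = 1.45e-14) with OSM and -0.25 (SE 0.06, adjusted p = 0.000271) with EGF. With TGFB it was -0.02 and did not pass the test. The OSM rise shrank when EGF was present, to a log2 change of 0.35 (SE 0.06, adjusted p = 2.72e-06). Under all 3 ligands the libraries held 376, 391 and 340 CPM and overlapped PBS, while HIF1A in the same libraries was 5.31-fold its PBS level.

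Of 16 regulators of the factors (partners, hydroxylases, the VHL ubiquitin ligase complex and coactivators), EGF raised 5 and lowered 8, OSM raised 7 and lowered 4, and TGFB raised 5 and lowered 1. Over all genes the shares raised and lowered were 34.9% and 38.6% with EGF, 33.5% and 29.8% with OSM, and 19.9% and 15.8% with TGFB, so the counts raised by EGF lay near that background. Their median log2 fold changes were -0.29, -0.02 and 0.05. ARNT2, a dimerisation partner, rose with each ligand, by log2 fold changes of 1.60 with OSM, 1.59 with TGFB and 1.35 with EGF. CITED2, which competes with the factors for their coactivators, fell by 1.68 on the log2 scale with EGF, and the coactivator EP300 fell by 0.82. ELOC, a subunit of the VHL complex, rose by 0.68 with EGF. SIAH1, a ubiquitin ligase acting on the hydroxylases, rose by 0.70 with OSM and 0.91 with TGFB. HIF3A fell by 1.48 with OSM and EP300 fell by 0.28. The HIF3A value rests on few counts, with means of 0.221 CPM in PBS and 0.0776 with OSM. The 1 gene called lower with TGFB was ELOB, another VHL complex subunit, at -0.14. That count was 0 without PBS replicate 2, PBS replicate 3 or TGFB replicate 1, and 2 with DESeq2 and under 5 other alternatives. The 4 lowered by OSM became 2 without PBS replicate 2, OSM replicate 1 or OSM replicate 3.

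Of the 34 genes, CA9 and EGLN3 differed most between groups, followed by ENO2 and SLC2A3. CA9, a cell-surface carbonic anhydrase that hydrates carbon dioxide outside the cell, was almost absent without OSM. It lies at chr9:35673928-35681159 on the plus strand. Its counts were 0, 1 and 1 in the PBS libraries, 0, 1 and 0 with TGFB, and 18, 6 and 7 with EGF. With OSM they were 433, 429 and 355. At library size, the ratio of OSM to PBS was 662, with a 95% interval of 183 to 5470 from counting error alone. The other groups with OSM held 464, 357 and 300 counts (with EGF), 265, 225 and 226 (with TGFB) and 612, 275 and 310 (all 3 ligands). At T0 there were 16, 17 and 17 counts, and the level was lower after 24 h with PBS. The ratio of EGF to PBS was 14.5, with a counting interval of 3.69 to 125, and that of T0 to PBS 22.2, with 5.84 to 189.

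EGLN3 encodes an oxygen-dependent prolyl hydroxylase that acts on the factors and is itself among their targets. It lies at chr14:33924227-34462774 on the minus strand. It read 0.525, 0.69 and 0.66 CPM in PBS, 2, 2.13 and 1.78 with EGF and 2.04, 1.75 and 1.47 with TGFB. With OSM it read 57.2, 52.8 and 47.3 CPM, the largest rise in the set after CA9. The log2 fold changes were 1.65 (SE 0.37, adjusted p = 0.000437) with EGF, 6.38 (SE 0.27, adjusted p = 1.31e-14) with OSM and 1.48 (SE 0.39, adjusted p = 0.00475) with TGFB. EGF with TGFB gave 9.57, 7.23 and 5.89 CPM, above both single ligands without overlap. EGF with OSM gave 31.9, 26.9 and 19, below OSM alone. OSM with TGFB gave 94.8, 83.7 and 81.3, the highest group, and all 3 ligands 67.4, 57.8 and 44.6.

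NDRG1, a stress-induced gene, moved in opposite directions with EGF and the other ligands. It read 345, 314 and 333 CPM in PBS, 232, 218 and 210 with EGF, 1380, 1290 and 1230 with OSM and 724, 666 and 710 with TGFB. No 2 of these 4 groups overlapped. Log2 fold changes were -0.59 (SE 0.10, adjusted p = 2.27e-05), 1.97 (SE 0.11, adjusted p = 1.65e-13) and 1.08 (SE 0.10, adjusted p = 1.61e-08). The combinations with EGF stayed below their counterparts without it: 810, 637 and 546 CPM with EGF and OSM, 260, 257 and 231 with EGF and TGFB. OSM with TGFB reached 1950, 1920 and 1750 CPM, and all 3 ligands 1130, 1040 and 875. T0 held 341, 325 and 382 CPM, which overlapped PBS.

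BNIP3, a mitochondrial protein that promotes removal of mitochondria, rose with OSM and was not called with EGF or TGFB. It read 32.1, 31.5 and 29 CPM in PBS, 33.2, 30.7 and 31.6 with EGF and 31, 30.6 and 32.1 with TGFB. With OSM it read 77.8, 74.7 and 76.4 CPM, a log2 change of 1.31 (SE 0.09, adjusted p = 1.63e-12). The log2 fold changes of EGF and TGFB were 0.04 and 0.02. TGFB added to OSM brought the level to 133, 126 and 124 CPM, EGF added to OSM to 94.1, 74.9 and 70.3, and all 3 together to 189, 165 and 157. The group with all 3 ligands lay above all others without overlap, at a log2 change of 2.46 (SE 0.09, adjusted p = 2.97e-18). EGF with TGFB gave 43.6, 39.2 and 35.5 CPM and T0 31.9, 35.2 and 31.7.

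ADM encodes adrenomedullin, a secreted peptide that widens blood vessels. It was lower with EGF, at 7.14, 7 and 7.95 CPM, than in PBS, at 18.4, 17.8 and 16.4, a log2 change of -1.25 (SE 0.13, adjusted p = 1.91e-09). OSM gave 13.1, 14.9 and 10.8 CPM, also a fall, of -0.44 (SE 0.12, adjusted p = 0.00288). TGFB gave 17.8, 16.3 and 15.1, with no call. EGF with OSM read 23.7, 20.5 and 16.7 CPM, which overlapped PBS, with a log2 change of 0.21 (SE 0.12, adjusted p = 0.106). That difference was not called, although it passed without EGF+OSM replicate 3 (adjusted p = 0.014). All 3 ligands gave 41.9, 34.1 and 31.5 CPM, the only group above PBS without overlap. EGF with TGFB read 9.68, 9.28 and 9.56 CPM, OSM with TGFB 18.8, 18.7 and 18.3 and T0 15.4, 14.4 and 12.2.

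KDM3A, a histone demethylase induced by low oxygen, rose with OSM and fell with EGF. It read 62.2, 59.6 and 60.3 CPM in PBS, 89.7, 90.1 and 71.9 with OSM and 29.7, 29.1 and 27.4 with EGF. The log2 fold changes were 0.47 (SE 0.08, adjusted p = 1.94e-05) and -1.08 (SE 0.08, adjusted p = 1.85e-11). With EGF and OSM it stayed below PBS, at 39.3, 39.2 and 34.6 CPM, and with OSM and TGFB it was highest, at 118, 115 and 104. With all 3 ligands the log2 fold change was 0.28 (SE 0.08, adjusted p = 0.00381), and this call ended without EGF+OSM+TGFB replicate 1 (adjusted p = 0.051). ANKRD37, an ankyrin-repeat gene of little known function, was low throughout, at 1.98, 1.7 and 1.78 CPM in PBS, 4.27, 4.59 and 4.1 with OSM and 3.63, 3.65 and 2.51 with EGF. Its log2 fold changes were 1.25 (SE 0.20, adjusted p = 5.47e-06) with OSM and 0.85 (SE 0.20, adjusted p = 0.000524) with EGF. Under all 3 ligands it reached 7.7, 7.77 and 7.8 CPM, above every other library. The pairs gave 5.33, 5.63 and 4.07 CPM (EGF and OSM), 5.48, 4.94 and 5.72 (OSM and TGFB) and 3.82, 4.03 and 2.98 (EGF and TGFB). TGFB alone gave 3.55, 2.11 and 1.88 CPM and was not called, but passed without TGFB replicate 3 (adjusted p = 0.025). T0 read 1.62, 1.68 and 2.4 CPM.

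**Figure D2:**
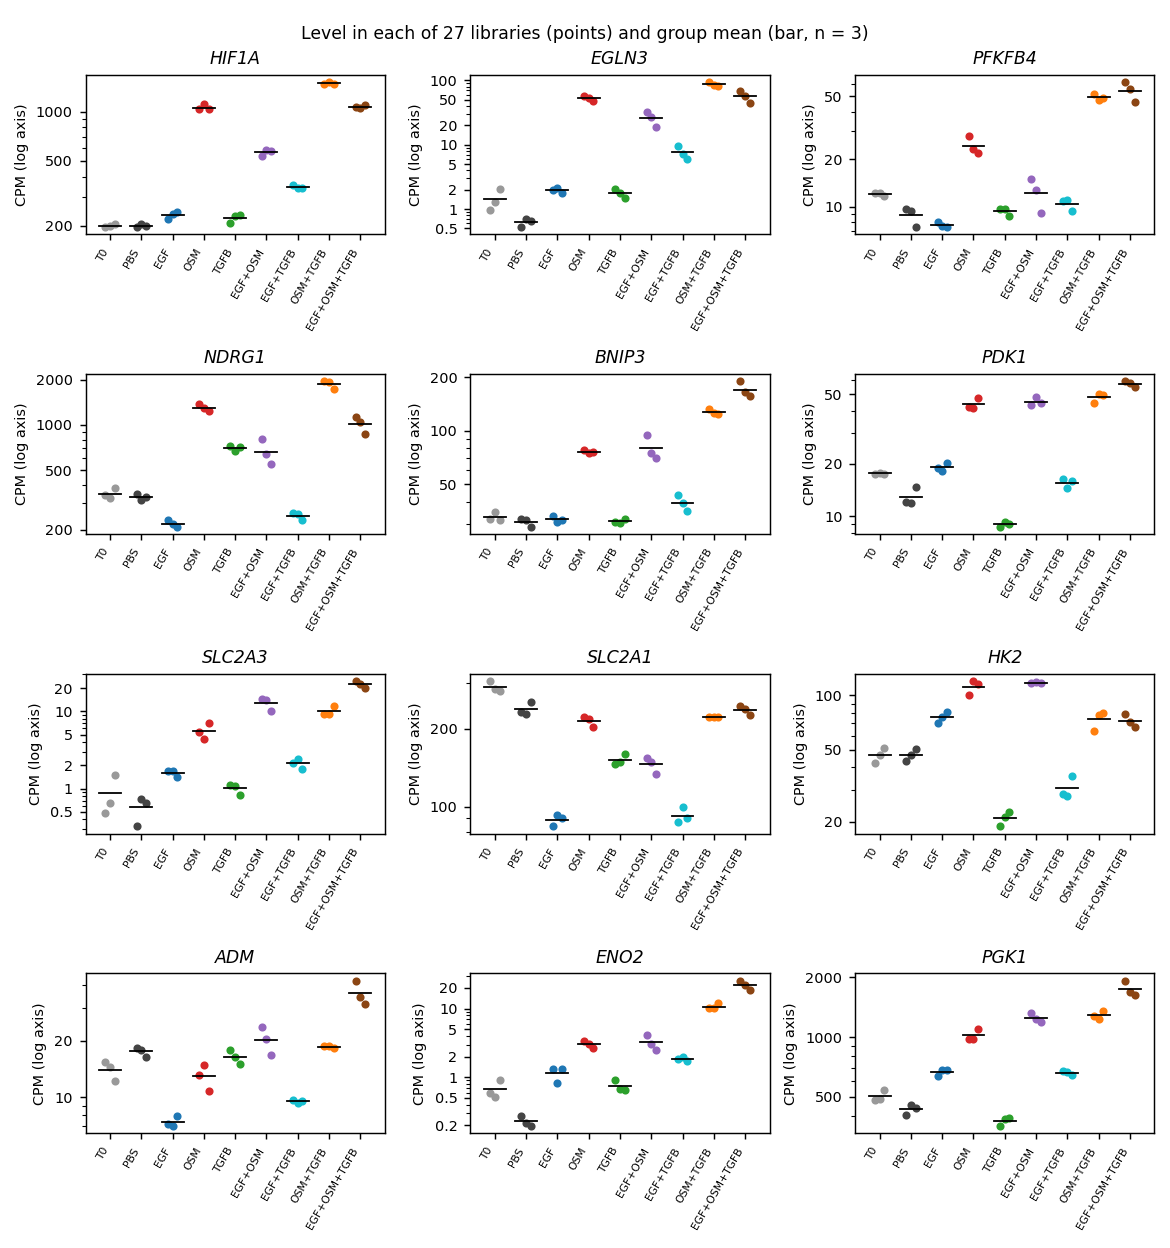
Level of 12 genes in CPM (vertical axes, logarithmic) in each of the 27 libraries (points), by group along the horizontal axis, with the group mean of 3 libraries as a bar. HIF1A, EGLN3, BNIP3, PDK1, SLC2A3, ENO2 and PGK1 have all 12 libraries with OSM above the other 15. SLC2A1, ADM, NDRG1 and PFKFB4 have their lowest group mean with EGF.

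A further 30 genes often induced by low oxygen were tested beside these 7. OSM raised 15 and lowered 8 of them (all genes, 33.5% and 29.8%), with a median log2 fold change of 0.22. EGF raised 9 and lowered 17 (34.9% and 38.6%; median -0.39), and TGFB raised 10 and lowered 7 (19.9% and 15.8%; median 0.10). The counts lowered by OSM and raised by EGF lay near the share of all genes. ANGPTL4, a secreted inhibitor of lipoprotein lipase, rose with each ligand, by log2 fold changes of 4.51 with OSM, 4.24 with EGF and 2.28 with TGFB. VEGFA, the main growth factor for blood vessels, rose by 2.38 with OSM, from a mean of 24.4 ± 0.908 CPM in PBS to 127 ± 15.8 (SD, n = 3). BHLHE40, a transcriptional repressor, rose by 1.32 with TGFB, and SAP30, a corepressor subunit, by 1.20 with EGF. HMOX1, which degrades haem, fell by 2.52 with EGF, and MXI1, an antagonist of MYC, fell by 1.80. Log2 fold changes of FAM162A were -0.61 with OSM and -0.92 with TGFB, that of TMEM45A was -1.02 with OSM, and that of ZNF395 -0.61 with TGFB. With all 3 ligands 19 of the 30 were called higher and 6 lower (37.7% and 36.7%), with a median of 0.93.

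The hypoxia-inducible factors bind DNA through a short core, ACGTG or GCGTG. Promoter windows of 300 bases (250 before and 50 after the transcription start, RefSeq, GRCh38.p14) were matched by symbol for 30 of the 34 genes, with 58 windows in all. The set of windows used held none for SLC2A3, PFKFB2, NDRG1 and SLC16A1, so their promoters were not searched. Both cores were searched on both strands, and CACGTG matches on each. At least 1 match stood in 67.2% of the 58 windows and in 48.4% of 35116 windows of the same length over the genome. ACGTG alone stood in 36.2% and 21.4%. Of the 30 genes, 28 had a match in at least 1 window and 17 had ACGTG. Genes with several windows, some of them overlapping, had more chances of a match. The same count was not made over all genes, so these counts per gene have no background. Windows of 5 genes follow, with matches in capitals: CA9 and EGLN3 for the largest rises with OSM, PGK1 and LDHA for enzymes that rose with it, and LDHB for the dehydrogenase that rose least. The LDHA window is that of the first start listed. CA9 holds 1 match, EGLN3 0, PGK1 4, LDHA 6 and LDHB 1. A match is letters and not a bound site, and the absence of a match concerns this window only.
CA9, chr9:35673678-35673977, plus strand: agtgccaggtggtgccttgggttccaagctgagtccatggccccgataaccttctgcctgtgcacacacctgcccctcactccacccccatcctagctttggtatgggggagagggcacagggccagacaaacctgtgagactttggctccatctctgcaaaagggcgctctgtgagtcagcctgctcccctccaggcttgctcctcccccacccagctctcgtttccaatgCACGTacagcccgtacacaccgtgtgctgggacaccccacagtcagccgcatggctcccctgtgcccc
EGLN3, chr14:33951025-33951324, minus strand: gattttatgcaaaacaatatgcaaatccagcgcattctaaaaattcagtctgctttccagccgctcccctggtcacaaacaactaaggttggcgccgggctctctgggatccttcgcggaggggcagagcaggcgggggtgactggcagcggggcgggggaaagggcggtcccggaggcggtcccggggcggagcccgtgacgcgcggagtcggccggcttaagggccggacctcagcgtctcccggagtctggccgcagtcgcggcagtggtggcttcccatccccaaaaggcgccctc
PGK1, chrX:78103998-78104297, plus strand: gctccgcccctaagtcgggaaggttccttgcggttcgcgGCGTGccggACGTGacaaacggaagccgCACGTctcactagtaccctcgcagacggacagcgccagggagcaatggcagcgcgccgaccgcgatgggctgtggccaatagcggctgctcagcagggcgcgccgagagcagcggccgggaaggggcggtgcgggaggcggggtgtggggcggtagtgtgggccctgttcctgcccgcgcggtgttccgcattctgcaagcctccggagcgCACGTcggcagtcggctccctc
LDHA, chr11:18394313-18394612, plus strand: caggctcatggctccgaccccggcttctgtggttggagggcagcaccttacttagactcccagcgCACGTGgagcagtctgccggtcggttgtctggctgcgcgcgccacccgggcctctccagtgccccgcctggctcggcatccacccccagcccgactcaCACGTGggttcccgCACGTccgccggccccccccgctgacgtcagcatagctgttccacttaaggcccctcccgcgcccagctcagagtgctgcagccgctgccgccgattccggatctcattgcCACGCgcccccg
LDHB, chr12:21657793-21658092, minus strand: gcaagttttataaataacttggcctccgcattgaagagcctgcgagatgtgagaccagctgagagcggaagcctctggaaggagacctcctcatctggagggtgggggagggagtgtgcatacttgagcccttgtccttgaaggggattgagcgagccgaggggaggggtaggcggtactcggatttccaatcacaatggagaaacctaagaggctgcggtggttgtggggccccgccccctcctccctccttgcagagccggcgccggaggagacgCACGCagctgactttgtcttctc

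The 2 glucose transporters moved in opposite directions with EGF. SLC2A1 encodes GLUT1, the transporter of most growing cells. It fell with EGF, from 232, 228 and 254 CPM in PBS to 83.8, 92.9 and 89.9, a log2 change of -1.42 (SE 0.06, adjusted p = 3.46e-16). TGFB gave 146, 149 and 160 CPM, a log2 change of -0.65 (SE 0.06, adjusted p = 3.05e-09). OSM gave 223, 219 and 204 CPM, just below PBS, at -0.15 (SE 0.06, adjusted p = 0.0379). The OSM call ended without PBS replicate 3 (adjusted p = 0.21), OSM replicate 2 (0.052) or OSM replicate 3 (0.17). With EGF and TGFB the level stayed at 86.8, 99.7 and 90.4 CPM. With EGF and OSM it was 154, 149 and 134, and with all 3 ligands 246, 239 and 226, which overlapped PBS. T0 was highest, at 306, 285 and 279 CPM.

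SLC2A3 encodes GLUT3, a transporter with higher affinity for glucose that is best known from neurons. It was near the lower limit in PBS, at 0.325, 0.733 and 0.66 CPM, and at T0, at 0.489, 0.661 and 1.52. It read 1.69, 1.7 and 1.41 CPM with EGF and 5.46, 4.35 and 6.99 with OSM. Log2 fold changes were 1.47 (SE 0.33, adjusted p = 0.000329) and 3.26 (SE 0.29, adjusted p = 9.66e-10). TGFB gave 1.12, 1.08 and 0.819 CPM and a log2 change of 0.80 (SE 0.36, adjusted p = 0.0873), not called by edgeR but called by DESeq2 (adjusted p = 0.027). The pairs gave 14.4, 14 and 10.2 CPM (EGF and OSM), 9.29, 9.36 and 11.8 (OSM and TGFB) and 2.14, 2.43 and 1.78 (EGF and TGFB). All 3 ligands gave 24.6, 22.7 and 20.3 CPM, above every other library.

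Hexokinases catalyse the first step of the pathway. HK1, the widely expressed form, fell in each of the 7 treatments, with log2 fold changes from -0.76 with OSM to -0.20 with all 3 ligands. Its PBS libraries held 476, 514 and 487 CPM and its OSM libraries 283, 289 and 301. HK2, the inducible form that docks on mitochondria, rose with EGF and OSM and fell with TGFB. It read 43.3, 46.6 and 50.5 CPM in PBS, 70.7, 76.3 and 80.9 with EGF, 100, 120 and 116 with OSM and 18.9, 21.4 and 22.6 with TGFB, with no overlap between any 2 of the 4 groups. The log2 fold changes were 0.70 (SE 0.10, adjusted p = 1.39e-06), 1.26 (SE 0.10, adjusted p = 1.4e-10) and -1.16 (SE 0.11, adjusted p = 6.29e-09). TGFB gave the lower level in pairs too. EGF with TGFB read 28.5, 27.7 and 36 CPM, below PBS, and OSM with TGFB 63.4, 77.7 and 80.2, between OSM and PBS. EGF with OSM gave 117, 118 and 117 CPM, all 3 ligands 79.3, 71 and 67.2 and T0 42.3, 46.8 and 51.4.

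Phosphofructokinase, the main control point of the pathway, is built from 3 kinds of subunit, which moved apart. PFKM, the muscle form, fell with all 7 treatments. It read 127, 129 and 132 CPM in PBS, 78.1, 81.4 and 80.5 with OSM, 77, 79.3 and 79.8 with TGFB and 41.3, 43.1 and 46.4 with both. PFKP, the platelet form, rose with all 7, from 158, 165 and 159 CPM in PBS to 359, 362 and 361 with EGF and 590, 567 and 537 with all 3 ligands. Log2 fold changes for all 3 ligands were -1.51 (SE 0.08, adjusted p = 9.5e-15) for PFKM and 1.81 (SE 0.06, adjusted p = 8.85e-20) for PFKP. PFKL, the liver form, read 91.8, 95 and 95.1 CPM in PBS, 129, 127 and 123 with EGF and 177, 162 and 158 with OSM. It rose with EGF (log2 fold change 0.43) and OSM (0.82), and with TGFB its value of 0.08 did not pass.

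The other enzymes of the upper pathway rose with OSM and fell with TGFB. GPI, which isomerises glucose-6-phosphate, read 390, 433 and 432 CPM in PBS, 448, 467 and 475 with EGF, 523, 538 and 567 with OSM and 257, 274 and 292 with TGFB. It had log2 fold changes of 0.37 with OSM and -0.61 with TGFB. Its change with EGF was 0.15 (SE 0.06, adjusted p = 0.0258), a call lost without PBS replicate 1 (adjusted p = 0.16), EGF replicate 2 (0.058) or EGF replicate 3 (0.083), and with upper-quartile scaling (0.18). ALDOA, the common aldolase, read 952, 1030 and 1010 CPM in PBS, 1720, 1710 and 1740 with OSM and 769, 830 and 827 with TGFB. TPI1, which interconverts the triose phosphates, read 438, 480 and 487, 836, 847 and 905 and 368, 386 and 411 CPM in the same order. In both genes OSM lay above PBS and TGFB below it without overlap. ALDOC, the aldolase best known from brain, fell with EGF as well as TGFB. It held 12.2, 14.6 and 17 CPM in PBS, 10.7, 10.3 and 10.7 with EGF, 22.7, 22.6 and 24.4 with OSM and 8.32, 9.99 and 10.4 with TGFB. Its log2 fold changes were -0.47 (SE 0.12, adjusted p = 0.000719), 0.67 (SE 0.11, adjusted p = 1.09e-05) and -0.61 (SE 0.12, adjusted p = 0.00018). Together OSM and TGFB gave 30.9, 31.8 and 35.5 CPM, above OSM alone, and all 3 ligands 53, 50.1 and 50.3, the highest. EGF with OSM read 27.9, 27 and 23.9 CPM, EGF with TGFB 11.6, 11.3 and 12.1 and T0 14.8, 14.1 and 20.2.

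The bifunctional PFKFB enzymes make and break fructose-2,6-bisphosphate, the strongest activator of phosphofructokinase. PFKFB3, the form with the highest kinase activity, rose with each ligand. It read 60.8, 59.8 and 55.5 CPM in PBS, 66, 66.5 and 71.5 with EGF, 82.3, 83.1 and 77.9 with TGFB and 200, 204 and 184 with OSM. Log2 fold changes were 0.21 (SE 0.06, adjusted p = 0.00485), 0.47 (SE 0.06, adjusted p = 2.05e-06) and 1.74 (SE 0.07, adjusted p = 1.35e-17). OSM with TGFB gave 309, 293 and 276 CPM, the highest group. The remaining groups held 176, 148 and 159 CPM (EGF and OSM), 77.8, 76 and 78.2 (EGF and TGFB), 212, 203 and 182 (all 3) and 48.4, 53.3 and 50.4 (T0).

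PFKFB4, another inducible form, rose with OSM and was not called with EGF or TGFB. It read 9.75, 9.4 and 7.45 CPM in PBS, 7.97, 7.54 and 7.51 with EGF, 9.76, 9.72 and 8.79 with TGFB and 27.9, 23.1 and 21.9 with OSM. The OSM log2 fold change was 1.45 (SE 0.13, adjusted p = 9.34e-10), and those of EGF (-0.21) and TGFB (0.09) were not called. EGF with OSM gave 14.9, 12.8 and 9.18 CPM, which overlapped T0 (12.2, 12.2 and 11.7). OSM with TGFB gave 51.5, 47.7 and 49.1 CPM, all 3 ligands 61.8, 55.4 and 46.1 and EGF with TGFB 10.9, 11 and 9.42. Adding TGFB to EGF and OSM therefore took the log2 level up by 2.15 (SE 0.13, adjusted p = 9.42e-13). PFKFB2, the heart form, went the other way. It was highest in PBS, at 47.6, 50.4 and 54.6 CPM, against 26.5, 29.2 and 28.4 with EGF and 24.5, 26.7 and 26.6 with OSM. It fell in all 7 treatments, by log2 fold changes of -0.25 with TGFB to -1.19 with EGF and TGFB.

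The lower pathway, from triose phosphate to pyruvate, had 6 of 6 genes called higher with OSM and with EGF (33.5% and 34.9% of all genes). With TGFB, GAPDH and PGK1 fell, ENO2 rose, and PGAM1, ENO1 and PKM were not called. GAPDH, the dehydrogenase of the pathway and a common reference gene, read 2630, 2880 and 2880 CPM in PBS, 5320, 5330 and 5350 with OSM and 2190, 2330 and 2410 with TGFB. Its log2 fold changes were 0.93 (SE 0.05, adjusted p = 2.59e-14) and -0.28 (SE 0.05, adjusted p = 9.84e-05). PGK1, which makes the first ATP of the pathway, read 405, 455 and 442 CPM in PBS, 636, 681 and 682 with EGF and 981, 975 and 1100 with OSM. Its log2 fold changes were 0.62 (SE 0.07, adjusted p = 4.7e-09) and 1.23 (SE 0.07, adjusted p = 2.12e-14). With all 3 ligands PGK1 reached 1920, 1690 and 1620 CPM, a log2 change of 2.0 (SE 0.07, adjusted p = 4.95e-19). The pairs held 1320, 1230 and 1190 CPM (EGF and OSM), 1280, 1230 and 1350 (OSM and TGFB) and 674, 665 and 643 (EGF and TGFB), and T0 484, 488 and 543. With TGFB alone PGK1 read 357, 389 and 393 CPM, a log2 change of -0.19 (SE 0.07, adjusted p = 0.0222). That call ended without PBS replicate 2 (adjusted p = 0.11), PBS replicate 3 (0.073) or TGFB replicate 1 (0.13).

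ENO2, the enolase of neurons, changed by far more than ENO1, the common form. ENO2 read 0.275, 0.216 and 0.195 CPM in PBS, 1.33, 0.818 and 1.34 with EGF, 3.42, 3.02 and 2.7 with OSM and 0.913, 0.672 and 0.655 with TGFB, so that each single ligand lay above PBS. Its counts in the PBS libraries were 11, 10 and 8. The log2 fold changes were 2.33 (SE 0.30, adjusted p = 1.22e-07), 3.72 (SE 0.27, adjusted p = 5.81e-12) and 1.70 (SE 0.33, adjusted p = 0.000162). OSM with TGFB gave 10.2, 10.1 and 11.9 CPM, and all 3 ligands 25.5, 21.8 and 18.5. The groups EGF with OSM (4.17, 3.07 and 2.53 CPM), EGF with TGFB (1.87, 1.96 and 1.75) and T0 (0.596, 0.51 and 0.909) lay in between. ENO1 read 1570, 1690 and 1660 CPM in PBS and 3610, 3740 and 4000 with OSM, a log2 change of 1.21 (SE 0.05, adjusted p = 5.56e-16). PGAM1, the mutase, read 316, 351 and 358 CPM in PBS, 554, 597 and 621 with EGF and 627, 629 and 722 with OSM. PKM, the pyruvate kinase, read 1580, 1770 and 1790, 2510, 2680 and 2680 and 3020, 3070 and 3310 CPM, and neither gene overlapped PBS with either ligand. They had log2 fold changes with OSM of 0.95 and 0.87, and with all 3 ligands of 1.48 and 1.44.

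The fate of pyruvate is set by lactate dehydrogenase, the lactate exporters and the kinase that blocks pyruvate dehydrogenase. LDHA, the subunit that favours lactate, read 774, 803 and 768 CPM in PBS, 1670, 1770 and 1810 with EGF, 2570, 2800 and 2980 with OSM and 958, 987 and 1000 with TGFB. Each ligand lay above PBS without overlap, at log2 fold changes of 1.16 (SE 0.06, adjusted p = 1.67e-15), 1.83 (SE 0.06, adjusted p = 2.65e-19) and 0.33 (SE 0.05, adjusted p = 2.63e-05). All 3 ligands gave 3720, 3420 and 3460 CPM, and T0 1180, 1100 and 1230. The pairs held 3260, 3380 and 3230 CPM (EGF and OSM), 1920, 1790 and 1730 (EGF and TGFB) and 2620, 2740 and 2840 (OSM and TGFB). The deposited table lists LDHA in 2 rows that are equal in all 27 libraries, so its summed level may hold the same reads more than once, which leaves fold changes as they are.

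LDHB, the subunit of oxidative tissues, read 469, 493 and 479 CPM in PBS, 575, 633 and 664 with EGF, 504, 564 and 620 with OSM and 357, 374 and 397 with TGFB. It rose with EGF (0.38, SE 0.08, adjusted p = 0.000266) and fell with TGFB (-0.35, SE 0.08, adjusted p = 0.00157). With OSM it rose by 0.23 (SE 0.08, adjusted p = 0.0202), a call lost without PBS replicate 1 (adjusted p = 0.063) or OSM replicate 3 (0.14). With OSM and TGFB it fell to 311, 326 and 352 CPM and with all 3 ligands to 339, 306 and 375. The level was below PBS in all groups with TGFB, while LDHA was above PBS in every treated group.

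SLC16A1 encodes the lactate carrier MCT1. It read 133, 132 and 129 CPM in PBS, 236, 244 and 246 with EGF and 412, 443 and 413 with OSM, the highest of all groups. SLC16A3 encodes MCT4, the carrier of cells that export much lactate. It read 186, 217 and 215 CPM in PBS, 403, 423 and 428 with EGF, 482, 457 and 515 with OSM and 749, 807 and 752 with all 3 ligands. Log2 fold changes with OSM were 1.68 (SE 0.05, adjusted p = 6.41e-20) for SLC16A1 and 1.23 (SE 0.07, adjusted p = 6.81e-14) for SLC16A3. With all 3 ligands they were 1.20 and 1.9.

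PDK1 encodes a kinase that switches off pyruvate dehydrogenase and so keeps pyruvate out of mitochondria. It read 12.1, 12 and 14.7 CPM in PBS, 18.9, 18.3 and 20.3 with EGF, 42.3, 42 and 47.7 with OSM and 8.74, 9.29 and 9.09 with TGFB. EGF and OSM lay above PBS and TGFB below it, at log2 fold changes of 0.57 (SE 0.08, adjusted p = 2.39e-07), 1.77 (SE 0.07, adjusted p = 1.63e-16) and -0.51 (SE 0.08, adjusted p = 1.29e-05). On top of OSM, TGFB no longer went with a lower level: OSM with TGFB gave 44.5, 49.9 and 49.7 CPM and all 3 ligands 59.2, 57.7 and 54.8. EGF with OSM gave 43.3, 48.5 and 44.4 CPM, EGF with TGFB 16.3, 14.5 and 15.9 and T0 17.5, 17.8 and 17.6.

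The other genes that govern entry of pyruvate into mitochondria were tested beside PDK1. Of 16, EGF lowered 10 and raised 3 (all genes, 38.6% and 34.9%), OSM lowered 12 and raised 2 (29.8% and 33.5%), and TGFB lowered 12 and raised 0 (15.8% and 19.9%). At an unadjusted p under 0.05, edgeR's test also put 0 of the 16 above PBS with TGFB, and DESeq2 called 0. Their median log2 fold changes were -0.21, -0.37 and -0.37. PDK4 and PDK2, sister kinases of PDK1, fell with EGF and OSM, where PDK1 rose, and were also lower with TGFB, where PDK1 fell. PDK4 had log2 fold changes of -4.50 with EGF and -3.03 with OSM, from a mean of 481 ± 37.5 CPM in PBS to 21.2 ± 1.74 and 58.6 ± 13.2 (SD, n = 3). Those of PDK2 were -2.49 and -1.48. Under TGFB the mean of PDK4 was 292 CPM, and that of PDK2 was 21.5 against 28.9 for the control, without overlap in either gene. PDK3, another sister kinase, was listed among the genes induced by low oxygen and averaged 14.8 CPM under PBS. Its mean was 8.41 under EGF, without overlap. It was 13.4 under OSM and 14.3 under TGFB, both overlapping the control. MPC1, a subunit of the mitochondrial pyruvate carrier, fell by 0.86 with TGFB, and PC, which carboxylates pyruvate, fell by 0.77. Among the few that rose were ME2, a malic enzyme, by 0.94 with EGF and 0.16 with OSM, PDP1, a phosphatase that reactivates the dehydrogenase, by 0.82 with OSM, and PDP2 by 0.46 with EGF. The 2 raised by OSM became 1 without PBS replicate 3, OSM replicate 2 or OSM replicate 3.

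Of 31 further isoforms of glycolytic enzymes and transporters, 20 had enough counts to be tested. EGF raised 8 and lowered 6 (all genes, 34.9% and 38.6%), OSM raised 6 and lowered 4 (33.5% and 29.8%), and TGFB raised 5 and lowered 5 (19.9% and 15.8%). The counts with EGF and OSM lay near the shares of all genes. The median log2 fold changes were 0.17, 0.04 and -0.03. SLC2A6, a transporter of the lysosomal membrane, rose by 1.95 with EGF, 0.97 with OSM and 1.99 with TGFB, from a low PBS mean of 0.187 CPM. SLC2A9, which carries urate, rose by 1.53 with OSM, BPGM by 0.89 with TGFB and PGAM5 by 1.26 with EGF. LDHD, a mitochondrial D-lactate dehydrogenase, fell with each, at -2.69, -2.39 and -1.92 in the same order. SLC2A12 fell with EGF (-2.11) and OSM (-2.59), and SLC16A7, the carrier MCT2, fell by 1.5 with TGFB. The 5 lowered by TGFB became 3 without TGFB replicate 1.

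The balance between forms of the same step was read as a ratio of counts within each library. Such a ratio carries the length of both transcripts, so only its change between groups is meaningful. LDHB to LDHA was 0.605, 0.615 and 0.624 in PBS and 0.196, 0.201 and 0.208 with OSM. With all 3 ligands it was 0.0911, 0.0895 and 0.108. Every treated group lay below PBS without overlap. The mean log2 ratio differed from PBS by -0.79 with EGF, -1.61 with OSM, -0.68 with TGFB and -2.68 with all 3 ligands.

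PFKP to PFKM was 1.24, 1.28 and 1.20 in PBS and 12.8, 13.6 and 11.1 with all 3 ligands, and every treated group lay above PBS. The mean log2 ratio was higher than in PBS by 1.61 with EGF, 1.36 with OSM, 1.42 with TGFB and 3.33 with all 3 ligands. HK2 to HK1 was 0.0910, 0.0906 and 0.104 in PBS, 0.353, 0.414 and 0.386 with OSM and 0.0522, 0.0568 and 0.0597 with TGFB. EGF with TGFB, at 0.0869, 0.0813 and 0.105, overlapped PBS. SLC2A3 to SLC2A1 rose from a mean of 0.0024 in PBS to 0.0950 with all 3 ligands, with SLC2A3 at 74 counts over the 3 PBS libraries. These ratios are a description and were not tested.

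**Figure D3:**
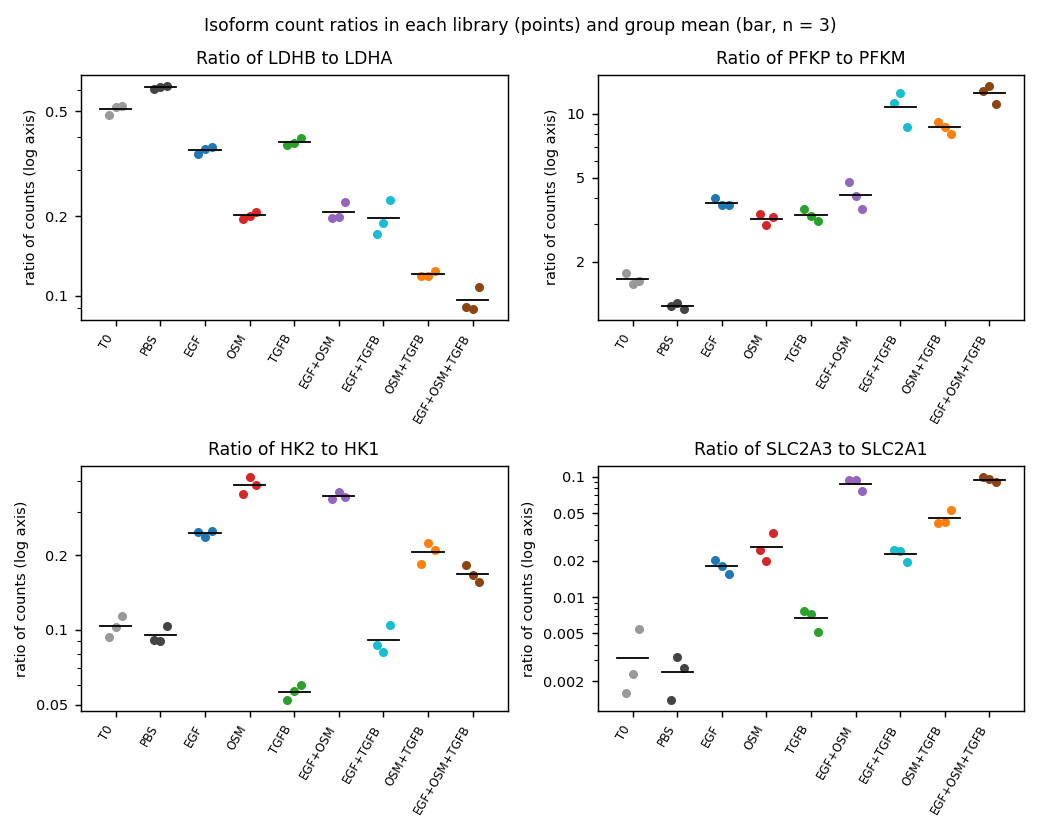
Ratio of counts of paired isoforms (vertical axes, logarithmic) in each of the 27 libraries (points) by group along the horizontal axis, with the mean of 3 libraries as a bar. LDHB to LDHA falls from 0.615 in PBS to 0.0963 with all 3 ligands, PFKP to PFKM goes from 1.24 to 12.5, and HK2 to HK1 is high with OSM (0.384) and low with TGFB (0.0562).

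How the ligands combined was asked with the departure, which is the log2 fold change of a pair minus the sum of those of its single ligands, all against the same PBS libraries. A departure of 0 means that log2 fold changes add. For EGF with OSM, 6 of 34 departures were called above 0 and 22 below (all genes, 15.7% and 23%), with 1 and 5 of at least 1 on the log2 scale (3.13% and 7.17%). In 27 of these 28 the departure ran against the sum of the single effects. EGLN3 had a sum of 8.03 and a pair value of 5.36, a departure of -2.67 (SE 0.41, adjusted p = 1.86e-05). ENO2 departed by -2.23 (SE 0.36, adjusted p = 1.61e-05), SLC16A1 by -1.25 (SE 0.07, adjusted p = 2.52e-13) and HIF1A by -1.13 (SE 0.07, adjusted p = 1.92e-12). The largest above 0 was ADM, at 1.9 (SE 0.17, adjusted p = 3.25e-09), which fell with each ligand alone and not with the pair. The pair and the sum share the PBS libraries, so the counts along and against the sum are a description. For no pair were such counts made over all genes, so they have no background. Those for EGF with OSM include CA9, whose fit rests on 2 counts in PBS. Over the other 33 genes 6 departures were above 0 and 21 below, with 1 and 4 of at least 1, and 26 of the 27 ran against the sum, a count made after the values were seen.

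OSM with TGFB went the other way: 17 departures were called above 0 and 4 below (9.61% and 13.7% of all genes), with 1 and 0 of at least 1 on the log2 scale (1.48% and 3.15%). Of these 21, 14 ran along the sum and 7 against it. Among the 14, ALDOC and HK2 had sums near 0, at 0.06 and 0.1. ALDOC departed by 1.11 (SE 0.16, adjusted p = 2.07e-05), PFKFB4 by 0.94 (SE 0.19, adjusted p = 0.000677), BNIP3 by 0.72 (SE 0.12, adjusted p = 0.000109) and PDK1 by 0.64 (SE 0.11, adjusted p = 9.68e-05). Below 0 were NDRG1, LDHB, SLC16A1 and LDHA, from -0.55 to -0.36. EGF with TGFB gave 9 departures above 0 and 7 below (13.3% and 16.5%), with 0 and 0 of that size (1.52% and 2.74%). Those below 0 became 4 without EGF+TGFB replicate 3. NDRG1 was the largest, at -0.90 (SE 0.15, adjusted p = 7.58e-05), followed by ALDOC, at 0.75 (SE 0.17, adjusted p = 0.00126). Of the 16 departures called for EGF with TGFB, 4 ran along the sum and 11 against it, and GAPDH had a sum of 0.0.

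**Figure D4:**
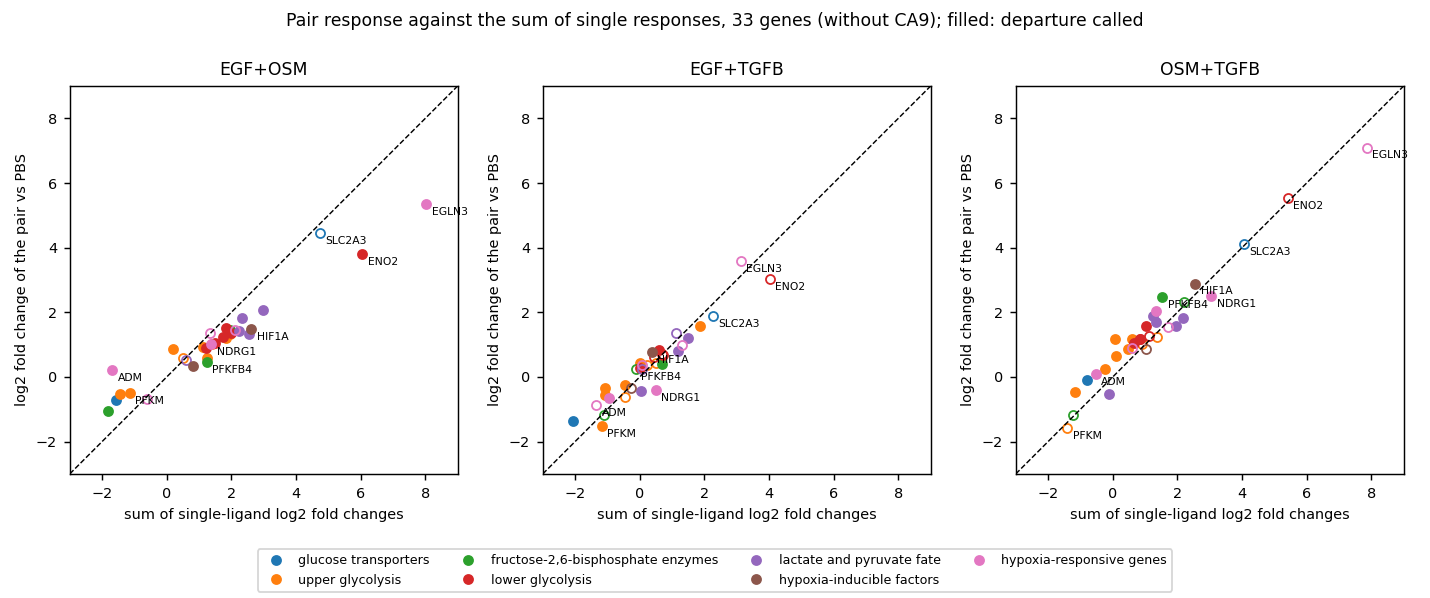
Log2 fold change of each pair against PBS (vertical axes) and the sum of those of both ligands alone (horizontal axes) for 33 genes, CA9 left out; the dashed line marks equality and filled points have a called departure. Most points for EGF with OSM lie below the line at positive sums (22 departures called below 0), and most for OSM with TGFB on or above it (17 called above 0).

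The effect of a ligand on top of another was compared after the values had been seen. Against OSM alone, EGF with OSM had 15 genes higher and 10 lower (all genes, 29.9% and 31.8%). KDM3A was lowest, at -1.15 (SE 0.08, adjusted p = 2.75e-11), and SLC2A3 highest, at 1.20 (SE 0.22, adjusted p = 4.51e-05). Against EGF alone the same pair had 30 higher and 1 lower (17.8% and 17.1%). The 1 was PFKFB2, at -0.19, and it was not called without EGF replicate 2, EGF replicate 3 or EGF+OSM replicate 1. OSM with TGFB had 20 higher and 7 lower than OSM (26.1% and 25.6%), and the 7 became 4 without OSM replicate 2. ENO2 rose most, by 1.82 (SE 0.18, adjusted p = 5.09e-09), and PFKM fell most, with -0.88 (SE 0.08, adjusted p = 2.55e-09).

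Against TGFB alone, OSM with TGFB had 29 genes higher and 2 lower (30.1% and 26.4%), the 2 being PFKM and PFKFB2. With upper-quartile scaling 4 were lower. EGF with TGFB had 12 higher and 7 lower than EGF (27% and 27.7%), and 23 higher and 8 lower than TGFB (33.9% and 35.5%). On top of EGF, TGFB gave the largest fall for HK2, at -1.31 (SE 0.10, adjusted p = 3.14e-10), and the largest rise for EGLN3, at 1.94 (SE 0.25, adjusted p = 1e-06). On top of TGFB, EGF gave the largest fall for NDRG1, at -1.49 (SE 0.11, adjusted p = 1.51e-11).

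TGFB added to EGF and OSM together left 24 genes higher and 5 lower (all genes, 31.6% and 29.5%), with 4 and 2 of at least 2-fold (8.91% and 6.10%). ENO2 changed most, by 2.76 (SE 0.18, adjusted p = 1.33e-12) on the log2 scale, then PFKFB4, EGLN3 (1.13, SE 0.18, adjusted p = 8.52e-06) and BNIP3 (1.09, SE 0.08, adjusted p = 3.39e-11). The genes that fell were LDHB (-1.01, SE 0.08, adjusted p = 2.07e-10), PFKM (-1.0, SE 0.08, adjusted p = 9.86e-11), HK2 (-0.69, SE 0.10, adjusted p = 1.92e-06), EPAS1 (-0.37) and SLC16A1 (-0.12). The SLC16A1 call ended without EGF+OSM replicate 3 (adjusted p = 0.091) or without EGF+OSM+TGFB replicate 2 (0.11) or 3 (0.13). TGFB alone had raised 8 of the 34 and lowered 13 (19.9% and 15.8%).

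The 24 h in PBS were not neutral. Compared with T0, 5 genes were higher in PBS and 19 lower (16.2% and 18.9% of all genes), 0 and 3 of them by at least 2-fold (1.92% and 3.60%), with a median log2 difference of -0.22. The 5 became 2 or 3 when any 1 of the 6 libraries was left out, and the 19 became 14 without T0 replicate 3. The log2 difference was -1.53 (SE 0.33, adjusted p = 0.000558) for ENO2, -0.58 (SE 0.05, adjusted p = 9.66e-09) for LDHA, -0.48 (SE 0.05, adjusted p = 5.78e-08) for GAPDH and -0.45 (SE 0.08, adjusted p = 4.45e-05) for PDK1. PFKFB2 rose by 0.35 (SE 0.07, adjusted p = 0.000164). HIF1A, with 0.00, and HK2, with 0.00, did not pass. EGLN3 fell by 1.17 (SE 0.39, adjusted p = 0.0248), a call that ended without T0 replicate 3 (adjusted p = 0.15) or without PBS replicate 1 (0.082), 2 (0.053) or 3 (0.055).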

How the data were processed

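RNA was measured in 27 libraries of 9 groups. Per the labels' protocols, RNA was extracted with RNeasy columns and libraries were made with a stranded kit for polyadenylated RNA. The authors deposited a table of 40487 gene rows whose values are estimated counts, whole numbers that are not normalized, and the submitters' processing notes name Trim Galore 0.4.3, cutadapt 1.10, FastQC 0.11.5, kallisto 0.46.2, R 3.5.0 and the builds GRCh38.p5 and hg38. The annotation release, any use of strand in counting and how transcripts were summed to genes are not given in the sources used here. Columns of other series numbered 0.

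Rows sharing a symbol were summed, giving 36536 genes, and 7165 rows without a symbol kept their Ensembl identifier. Genes were filtered with filterByExpr by group, which left 15575. Library sizes were scaled by TMM (factors 0.867 to 1.12). edgeR 4.0.16 in R 4.3.3 fitted a quasi-likelihood model with a mean per group over all 27 libraries (robust, 18 residual degrees of freedom, biological coefficient of variation 7.83%), and each comparison was a contrast. Genes were called at a Benjamini-Hochberg adjusted p under 0.05 over all genes tested; fold changes use a prior count of 0.125. The code was tested on simulated data. At 30.1 to 52.9 M (mega) counts the spread between libraries, more than counting, sets the precision of all but the lowest genes, and without molecular identifiers counting intervals cover counting error only. Pairs of replicates differed beyond sampling noise (chi-square per degree of freedom 6.84 to 33.9), so no library was taken for another deposited again and each counted as 1. That does not show that they came from separate cultures.

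The comparisons were each treatment against PBS, PBS against T0, OSM against EGF, all 3 ligands against EGF with OSM, and 3 departures from additivity. A further 6 comparisons, of a ligand on top of another, were added after values were seen. All 34 genes may be named. Values in every library were given for genes whose highest group mean is at least 4 times the lowest and for those that changed most in a comparison, and from each other list the 2 called genes with the largest change per direction and single ligand. The members and lists were chosen with earlier results of these data known. Alternatives were RLE and upper-quartile scaling, no filter, DESeq2 1.42.0, only the compared groups in the fit, unsummed rows, a 2-fold limit, the replicate number as a block, and each library left out. Gene positions come from GENCODE v44 (GRCh38), and promoter windows from RefSeq on GRCh38.p14. Values of some genes of the other lists are not reported here.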

Additional observations from a re-analysis of the deposited data

Results flagged for a closer look

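For some genes a ligand's effect was called in opposite directions without and with another ligand, with the difference between the 2 effects (the departure of the pair) itself called by edgeR's quasi-likelihood test. The effect of a ligand on top of another was compared after values had been seen. All effects without the other ligand share the PBS libraries. How many of all genes tested meet this rule was not counted, so the numbers of genes given below have no background.

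The effect of EGF differed in this way without and with OSM for 8 genes. HIF1A rose by 0.22 with EGF alone and had a log2 change of -0.91 when EGF was added to OSM, a difference of -1.13. EGLN3 went from 1.65 to -1.02 (difference -2.67), SLC16A1 from 0.88 to -0.37 (-1.25), PFKL from 0.43 to -0.22 (-0.65) and PFKFB3 from 0.21 to -0.28 (-0.49). ADM went the other way, from -1.25 to 0.65 (difference 1.9), as did HK1, from -0.67 to 0.22 (0.89), and PFKM, from -0.45 to 0.19 (0.63). The adjusted p of the EGF effect on top of OSM for PFKM was 0.0435 and ranged from 0.00795 to 0.219 over the alternatives. The call for PFKL ended without EGF+OSM replicate 3 (adjusted p = 0.056).

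The effect of OSM differed without and with EGF for 3 genes. ADM went from -0.44 to 1.46 (difference 1.9), SLC2A1 from -0.15 to 0.72 (0.86) and HK1 from -0.76 to 0.13 (0.89). SLC2A1 also went from -0.15 without TGFB to 0.55 with it (difference 0.70). The SLC2A1 fall with OSM alone had an adjusted p of 0.0379, with a range of 0.00548 to 0.215 over the alternatives. HK1 on top of EGF had 0.0427, with a range of 0.0182 to 0.310.

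The effect of TGFB differed without and with OSM for 6 genes. HK1 went from -0.40 to 0.30 (difference 0.70), ALDOC from -0.61 to 0.49 (1.11), TPI1 from -0.27 to 0.31 (0.58), PGK1 from -0.19 to 0.34 (0.53), GAPDH from -0.28 to 0.13 (0.40) and SLC16A1 from 0.29 to -0.11 (-0.41). The calls on top of OSM for GAPDH (adjusted p = 0.0345, range 0.022 to 0.0938) and SLC16A1 (0.0431, range 0.00877 to 0.249) ended under several alternatives, as did PGK1 with TGFB alone (0.0222, range 0.00518 to 0.126).

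With EGF and TGFB there was 1 gene for each direction of reading. EGF lowered ALDOC alone, by a log2 fold change of -0.47, and gave 0.28 on top of TGFB, a difference of 0.75. TGFB lowered HK1 alone, by -0.40, and gave 0.12 on top of EGF, a difference of 0.53. The calls on top of the other ligand were near the threshold, at an adjusted p of 0.0415 (range 0.024 to 0.204) for ALDOC and 0.037 (range 0.0175 to 0.306) for HK1.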

How the results depend on the processing

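Of 646 results (34 genes in 19 comparisons), 0 reversed under any alternative run. A reversal was a change of sign in a result called in the main run or in the alternative. A change of sign in a result called in neither was not counted. DESeq2 kept 633 on their side of the threshold, RLE scaling 635, upper-quartile scaling 626, no filter 629, unsummed rows 641, and the fit of only the compared groups 617 of 640. Upper-quartile scaling moved the median of all genes by less than 0.1 in each comparison but EGF with TGFB (-0.04 to -0.14). DESeq2 called 4 members lower for OSM against EGF, where edgeR called 2. The cause was not tested.

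An added limit of 2-fold left 7 members higher and 3 lower with EGF, 18 and 0 with OSM, 3 and 1 with TGFB, 7 and 3 with EGF and TGFB, 14 and 0 for OSM against EGF, and 4 and 2 for TGFB on top of EGF and OSM. It left 1 lower with EGF and OSM, 2 lower with OSM and TGFB, 2 lower with all 3 ligands, and 0 higher and 3 lower for PBS against T0. Departures of that size numbered 1 above and 5 below 0 for EGF with OSM, 0 and 0 for EGF with TGFB, and 1 and 0 for OSM with TGFB. These counts are lower by construction.

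Leaving out 1 library at a time gave 2 to 3 members higher for PBS against T0 (5 with all libraries), 4 to 8 below 0 for the departure of EGF with TGFB (7), 4 to 7 lower for OSM with TGFB against OSM (7) and 0 to 1 lower for EGF with OSM against EGF (1). In the lists of other genes the same step gave 2 regulators of the factors lower with OSM (4) without PBS replicate 2, OSM replicate 1 or OSM replicate 3.

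The replicate number as a block is described once. Same-numbered libraries correlated with a mean r of 0.063 (-0.027 to 0.178, with 23 of 108 pairs over 0.1), against -0.031 for different numbers. The correlations were weak, but 26 of 27 libraries correlated best with their own number. Some variation was thus shared by number, and the labels do not say what the numbers stand for. The main fit did not use them. The block ended 0 of 646 calls and added 14. It gave 23 members higher and 9 lower with EGF, 29 and 5 with OSM, 8 and 13 with TGFB, 12 and 8 departures for EGF with TGFB, and 6 and 20 for PBS against T0.

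Depth limits the lowest genes: CA9 had 0, 1 and 1 counts in PBS, so its fold is given with a counting interval. Among genes of the other lists, HIF3A and SLC2A6 were also low in PBS, at means of 0.221 and 0.187 CPM.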

Other observations

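Of 10 genes of the pentose phosphate pathway, which makes NADPH and ribose, 9 were tested. EGF raised 2 and lowered 5 (all genes, 34.9% and 38.6%), OSM raised 3 and lowered 2 (33.5% and 29.8%, near these counts), and TGFB raised 0 and lowered 5 (19.9% and 15.8%; edgeR; at an unadjusted p under 0.05 it put 0 above PBS, and DESeq2 called 0). Their median log2 fold changes were -0.39, -0.01 and -0.24. TKT, the transketolase that links the pathway to glycolysis, had log2 fold changes of -1.04, -0.96 and -0.56 in the same order. H6PD, a dehydrogenase of the endoplasmic reticulum, fell by 0.93 with EGF and rose by 0.50 with OSM. RPIA, which makes ribose-5-phosphate, rose by 0.82 with EGF and 0.40 with OSM, and RPE rose by 0.69 with EGF. Without TGFB replicate 1 the count lowered by TGFB was 3.

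Of 17 genes of gluconeogenesis and glycogen, 16 were in the table and 12 were tested. EGF raised 5 and lowered 4 (all genes, 34.9% and 38.6%), OSM raised 4 and lowered 5 (33.5% and 29.8%), and TGFB raised 2 and lowered 4 (19.9% and 15.8%). The counts with EGF lay near the shares of all genes. The 2 glycogen phosphorylases tested moved in opposite directions with OSM. PYGL, the liver form, rose with each ligand, by log2 fold changes of 2.55 with OSM, 1.51 with EGF and 0.72 with TGFB. PYGB, the brain form, fell by 1.70 with OSM and rose by 0.22 with TGFB. GAA, which degrades glycogen in lysosomes, fell by 2.04 with EGF, and PHKB, a subunit of phosphorylase kinase, fell by 0.60. PHKA1, another such subunit, had log2 fold changes of -0.73 with OSM and -0.61 with TGFB. UGP2, which makes UDP-glucose, rose by 0.58 with OSM, PCK2 rose by 0.42 with EGF, and PGM2 fell by 0.53 with TGFB. Upper-quartile scaling left 3 raised by EGF, as did leaving out PBS replicate 3 or EGF replicate 3. Leaving out PBS replicate 1 left 1 raised by TGFB.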
